A study of Homo sapiens with 13 samples.

Results

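Cyclins switch on the kinases that move a cell through its division cycle, and 8 of their genes were followed here by the 3’ ends of their mRNAs: the D-type cyclins CCND1, CCND2 and CCND3, the E-type cyclins CCNE1 and CCNE2, the A-type cyclin CCNA2 and the B-type cyclins CCNB1 and CCNB2. They were taken by gene name from the deposited tables of 3’ ends. The 8 genes are among 14575 genes with reads and hold 166 of the 211765 different 3’ ends, with 13095 reads in all. The libraries were made by 3’ READS, which sequences the junction between an mRNA and its poly(A) tail, so that each read marks where 1 mRNA molecule ended. A read comes from 1 end of a molecule whatever its length, and read numbers can therefore be compared between genes without correction for length. Reads are not a count of molecules, since no molecular identifiers are given for these libraries.

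The cells were HEK293 Flp-in T-REx, a human embryonic kidney line that carries a single integrated and doxycycline-inducible copy of a transgene. In every library of both groups the transgene was an α-amanitin resistant Rpb1 (Amr), the largest subunit of RNA polymerase II, and in both the endogenous polymerase was then poisoned with the drug. In 5 libraries the transgene was otherwise wild type (WT). In 4 libraries it carried R749H, a change in the funnel domain that gives a slowly elongating enzyme. Doxycycline was given at 2 µg/ml for 24 h and α-amanitin at 2.5 µg/ml for 42 h, as the labels have it. For 3’ READS the study’s methods give a shorter induction before the drug. They keep doxycycline on during the 42 h of α-amanitin, and give 24 h of doxycycline for the eNETseq cells. The labels call the tag Avitag in the sample titles and B10 in the source names. The transgene is driven by an inducible promoter and not by that of POLR2A, and each group is 1 cell line, so that a difference between the lines and an effect of R749H cannot be told apart. No library without α-amanitin is analysed here.

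The D-type cyclins bind CDK4 and CDK6 and respond to growth signals early in G1, the E-type cyclins bind CDK2 at the start of DNA replication, cyclin A2 binds CDK2 and CDK1 in S and G2 phase, and the B-type cyclins bind CDK1 in mitosis. An mRNA’s 3’ end is made by cleavage and polyadenylation, usually a short way downstream of the hexamer AATAAA or the variant ATTAAA. A gene with several poly(A) sites in its last exon makes mRNAs with the same coding sequence and 3’ untranslated regions (3’ UTRs) of different length, which are called tandem 3’ UTRs. Shortened 3’ UTRs of CCND1 are known from mantle cell lymphoma, where they lack binding sites for microRNAs.

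The sequences that end at the main 3’ ends of 7 of the genes show where these genes are cleaved. Each run below is 30 nt of GRCh37 (the same build as hg19) on the strand of the gene, read 5’ to 3’, and its last base is the last one that can be told from the poly(A) tail. Templated As at the cleavage site read as tail, and 1 to 4 genomic As follow the ends shown here, with 4 after position 984 of CCND3, so cleavage may lie up to that many nt downstream. Capitals mark AATAAA. The number after the gene is the distance of that end from the stop codon in nt.
CCND1 3191: aaagtctagaAATAAAactggtaaaacccc
CCND2 202: gaatAATAAAaagcatttggtgcctatttg
CCND3 984: atcctactgtAATAAAgatgattgtgaaat
CCND3 1006: tgtgaAATAAAactggctttggcttcttgg
CCNE1 530: cattttttAATAAAgataatactgtttttg
CCNA2 1193: atttgaAATAAAccagaaatttgttacctt
CCNA2 1927: ttccaagaAATAAAagaacccatttcccat
CCNB1 63: AATAAAattggcaccatgtgccatctgtac
CCNB1 108: ttacttttAATAAAgcttgtggcccctttt
CCNB2 167: aaaAATAAAgcgattggtttttcttaaggt

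The window of CCND1 is chr11:69469212-69469241 on the plus strand, that of CCND2 is chr12:4409348-4409377 on the plus strand, and those of CCND3 are chr6:41902694-41902723 and chr6:41902672-41902701 on the minus strand. The CCNE1 window is chr19:30315185-30315214 on the plus strand, and the CCNA2 windows are chr4:122737600-122737629 and chr4:122736866-122736895 on the minus strand. For CCNB1 the windows are chr5:68473492-68473521 and chr5:68473537-68473566 on the plus strand, and for CCNB2 the window is chr15:59417214-59417243 on the plus strand. No sequence is printed for CCNE2.

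Of the 7 genes, 6 held AATAAA in the 30 nt before their most used end, with its first base 20 to 27 nt before the end. The exception was CCNB1, whose most used end, 65 nt from the stop codon, had neither AATAAA nor ATTAAA in its window. The window printed for this gene ends 2 nt farther upstream, at its second most used position of that group, and begins with AATAAA, so the hexamer starts just outside the window of the most used end. The CCNB1 end at 108 nt had AATAAA with its first base 22 nt upstream, and the window of the end at 123 nt, not shown, held neither hexamer. Both hexamers were searched on the transcribed strand alone. Among the most used ends of the 7874 genes whose reads averaged 20 or more over the libraries, 65.4% held AATAAA, 18% held ATTAAA, 1.78% held both and 81.6% held either. A match is only a match of letters and was not tested as a signal.

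The annotation (GENCODE) placed the most used end of each of the 8 genes in an exon and in its 3’ UTR. For 7 of the 8 this end lay within 3 nt of an annotated transcript end, and for CCND2 it lay 2243 nt from the nearest one. Within 5 kb of the stop codon, the label of these genes as ones with tandem 3’ UTRs was borne out for few of them. An annotated end of CCND2, 5344 nt from its stop codon, lies beyond that span and could not be counted. Ends no more than 24 nt apart were joined into 1 poly(A) site, and sites were counted from 5% of a gene’s reads. By this rule 6 of the 7 members that reached this depth had 1 site, and CCNA2 had 2. CCNB1 counted as 1 site because sparse ends between its groups at 61 to 68 and 105 to 127 nt linked them. Joined at 4 nt instead, the groups of CCNB1 were separate sites, as were those of CCND3 at 980 to 984 and 1002 to 1006 nt. Over all 7874 genes at this depth, 56.7% had 1 site and 43.3% had 2 or more.

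CCND1 has a long annotated 3’ UTR, which ends 3192 nt from the stop codon (last base of the stop codon at position 69466050 of chromosome 11), and nearly all its reads came from that end. The site from 3183 to 3212 nt held 4049 of 4151 reads (97.5%), and the single position 3191 held 3656 reads (88.1%). Shorter forms made up 102 reads (2.46%), spread over small sites such as those from 2666 to 2693 nt with 36 reads and from 1784 to 1797 nt with 27 reads. The shorter forms were 2.47% ± 2.57 (SD, n = 5) of CCND1 reads in WT and 2.67% ± 0.174 (SD, n = 4) in R749H libraries. Their share was 0.772% in WT replicate 2, 2.80% in replicate 3, 2.18% in replicate 4 and 6.61% in replicate 5 (16 of 242 reads, 95% Wilson interval 4.11% to 10.5%). WT replicate 1 had 0 of 384 reads in shorter forms, which allows a share of up to 0.781%. This limit, like the others given for counts of 0, is 3 reads over the gene’s reads in the library. It is tighter than the 95% Wilson interval, which reaches 0.99% here. The 4 R749H libraries, with 2.69%, 2.43%, 2.84% and 2.73%, all lay inside the range of the WT libraries. These intervals and limits cover counting error only, since no molecular identifiers are given for these libraries.

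CCND2 has an annotated end 5344 nt from its stop codon (last base at position 4409175 of chromosome 12), which lies outside the 5 kb within which ends were assigned, so its longest form is not measured. What was measured was a proximal site from 190 to 228 nt with 823 of 870 reads (94.6%). Cleavage there was spread over many positions. The most used one, at 202 nt, held 257 reads (29.5%), followed by 197 nt with 182, 211 nt with 149 and 208 nt with 140 reads. Only 8.93% of the 7874 genes had a lower share at their most used end. Ends beyond this site made up 5.36% ± 2.12 (SD, n = 5) of CCND2 reads in WT and 2.78% ± 3.42 (SD, n = 4) in R749H libraries, ranging from 3.13% to 8.51% and from 0% to 7.77%. The 0% is R749H replicate 3, where 0 of 80 reads allow a share of up to 3.75%. This library lacks rare ends throughout, as described for CCNA2 below, and the limit does not take that into account.

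CCND3 (last base of the stop codon at position 41903678 of chromosome 6) ended within 27 nt, from 980 to 1006 nt, in all 532 reads, and its annotated gene end is at 1006 nt. The ends formed a pair of groups, each with its own AATAAA in the sequences above. Positions 980 to 984 held 313 reads (58.8%) and positions 1002 to 1006 held 202 reads (38.0%). The upstream group took 58.3%, 46.3%, 69.1%, 67.4% and 48.4% of CCND3 reads in WT replicates 1 to 5, and 50%, 55.6%, 45.0% and 70.5% in R749H replicates 1 to 4. The groups of libraries overlapped over nearly their whole ranges. CCND3 was thinly covered, and the share of 45.0% in R749H replicate 3 rests on 18 of 40 reads (95% Wilson interval 30.7% to 60.2%).

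CCNE1 (last base of the stop codon at position 30314684 of chromosome 19) had a single narrow site. All 2087 reads ended between 504 and 547 nt, and 3 positions 2 nt apart carried most of them, 530 nt with 860, 532 nt with 598 and 534 nt with 593 reads. The annotated gene end is at 535 nt. The position at 530 nt took 42.9% ± 3.72 (SD, n = 5) of CCNE1 reads in WT and 40.8% ± 3.85 (SD, n = 4) in R749H libraries. CCNE2 had 29 reads over all 9 libraries, 28 of them between 1399 and 1425 nt, which is too few for shares by library.

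CCNA2 (last base of the stop codon at position 122738793 of chromosome 4) was, with ends joined up to 24 nt, the only member with a second site above 5%. The site from 1188 to 1204 nt, at the annotated gene end of 1194 nt, held 1222 of 1441 reads (84.8%), with 1184 at position 1193. A distal site at 1927 to 1929 nt held 102 reads (7.08%), and its window contains AATAAA as shown above. It lies beyond the annotated end of CCNA2, in a stretch where EXOSC9 is annotated on the opposite strand. Reads upstream of the main site came to 69 (4.79%), most of them at 102 to 119 nt (29 reads) and 261 to 276 nt (30 reads).

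The distal CCNA2 site took 9.80%, 9.30%, 11.3%, 5.56% and 5.66% of the gene’s reads in WT replicates 1 to 5, and 7.56%, 10.8%, 3.10% and 5.29% in R749H replicates 1 to 4. The lowest and the highest of these rest on 4 of 129 reads (95% Wilson interval 1.21% to 7.70%) and 15 of 133 reads (6.95% to 17.8%), and the groups overlapped. The main site took 64.7% of CCNA2 reads in WT replicate 1, the library with the fewest reads (33 of 51, 95% Wilson interval 51.0% to 76.4%), and 79.0% to 90.6% in the other 4 WT libraries. In R749H libraries it took 77.7% to 96.9%. The highest share was in R749H replicate 3, a library that lacks rare ends throughout (6.60% of its different ends rest on 1 read, whereas the other 8 libraries had 30.05% to 36.2% of such ends).

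CCNB1 (last base of the stop codon at position 68473458 of chromosome 5) ended close to its stop codon in nearly all reads, although its annotated gene end is at 614 nt. Between 54 and 127 nt lay 3095 of 3173 reads (97.5%), in 2 groups of positions. The first group, 61 to 68 nt, held 2032 reads (64.0%), led by 65 nt with 1218, 63 nt with 391 and 61 nt with 230 reads. The second, 105 to 127 nt, held 1044 reads (32.9%), led by 123 nt with 591 and 108 nt with 339 reads. A distal site from 604 to 610 nt held 51 reads (1.61%).

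The first CCNB1 group took 64.1%, 67.0%, 58.5%, 64.1% and 55.3% of the gene’s reads in WT replicates 1 to 5, and 64.5%, 72.0%, 65.2% and 74.6% in R749H replicates 1 to 4. The means were 61.8% ± 4.76 (SD, n = 5) and 69.1% ± 5.02 (SD, n = 4), and the groups overlapped at 64.5% to 67.0%. The second group took 34.5% ± 6.17 (SD, n = 5) and 28.6% ± 3.72 (SD, n = 4). The distal site took 1.24% to 2.53% in WT libraries and 0% to 1.81% in R749H libraries, where R749H replicate 4 had 0 of 268 reads (an upper limit of 1.12% from a count of 0).

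CCNB2 (last base of the stop codon at position 59417076 of chromosome 15) had the narrowest site, 9 nt from 159 to 167 nt, with 796 of 812 reads (98.0%). Its annotated gene end is at 168 nt. Position 167 held 459 reads and position 162 held 241. The remaining 16 reads ended at 1129 to 1147 nt. That distal group had 1.33% to 3.66% of CCNB2 reads in WT libraries and no reads in 3 of 4 R749H libraries. Among these 3 is R749H replicate 3, which lacks rare ends throughout. The counts are too low to tell the groups apart, since 0 of 78 reads, in R749H replicate 4, allow a share of up to 3.85%.

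**Figure D1:**
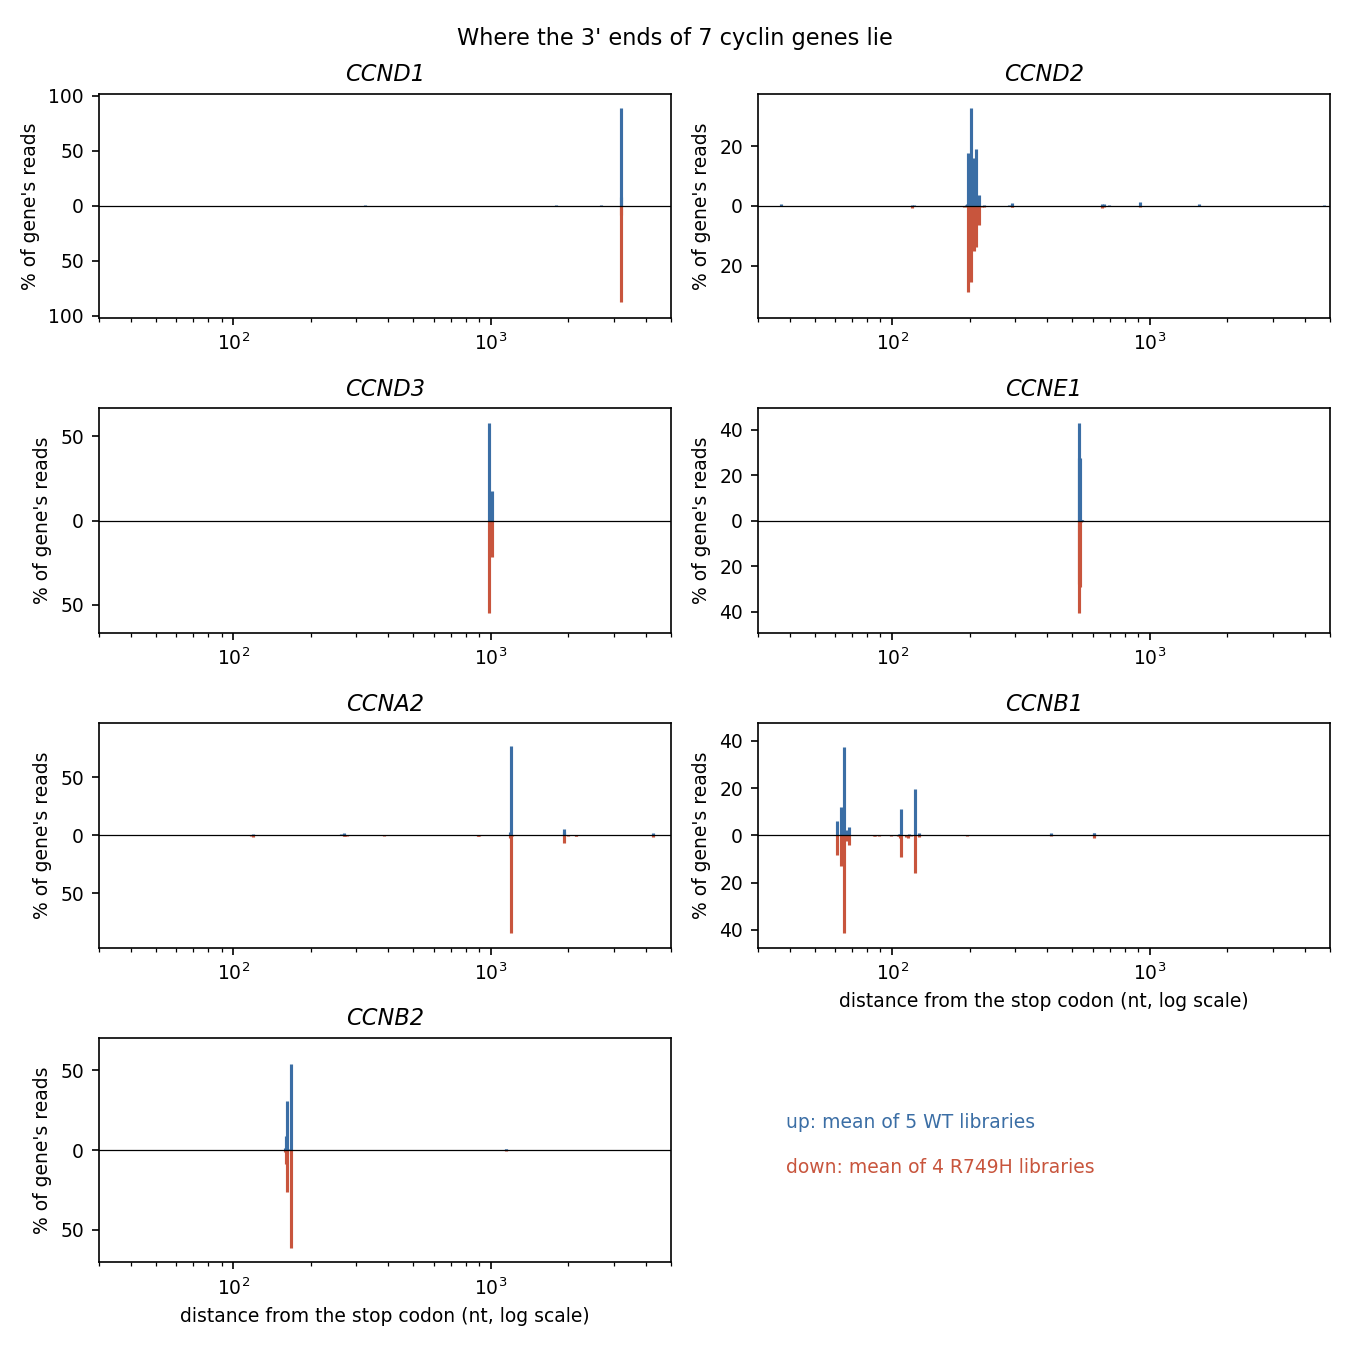
Share of each gene’s reads (y axis, percent, each panel with its own scale) at each 3’ end against its distance from the stop codon (x axis, nt, log scale), as the mean of 5 WT libraries above the line and of 4 R749H libraries below it. Each gene has 1 dominant site, CCNA2 has a smaller one at 1927 to 1929 nt, and CCNB1 ends in 2 groups at 61 to 68 and 105 to 127 nt.

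Whether slow polymerase moved these ends was asked in 3 ways across all genes, each tested with limma and Benjamini-Hochberg adjustment. No member passed any of them, and few genes of any kind did. The first measure was the log2 odds of reads beyond the gene’s pooled median 3’ end, where a negative difference (R749H minus WT) means more use of upstream ends. Among 7681 genes, 3 were called (0.0391%), all toward upstream ends, while 719 had an unadjusted p under 0.05. Of these 719, 441 had a negative difference and 278 a positive one. The median difference over all genes tested was -0.097. The 7 members tested had differences of -1.52 to 0.65 on this log2 scale. The highest was that of CCND1, divided at 3191 nt, beyond which few of its reads lay. Its sign turned by mean distance (-0.0074) and with the division at the midpoint of the major ends (-0.19). CCNB1 had -0.40 ± 0.22 (SE, adjusted p = 0.618), CCNA2 -0.55 ± 0.49 (adjusted p = 0.735) and CCNB2 -1.52 ± 0.54 (adjusted p = 0.434). The CCNB2 value rests on the 16 distal reads alone, because its pooled median end is the last position of the main site.

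When the whole distribution was summarised as the read-weighted mean distance from the stop codon, on the log2 scale, CCNB1 gave -0.27 ± 0.09 (SE, limma adjusted p = 0.348), and all 4 R749H libraries, at 6.28 to 6.55, lay below all 5 WT libraries, at 6.58 to 6.91. Groups that do not overlap were found in 5.19% of 7797 genes on this measure. The other 6 members overlapped. The CCNB1 mean takes in 78 reads beyond the main site, which count with their full distance. They were 1.74% to 7.17% of CCNB1 reads in WT libraries and 0% to 2.71% in R749H libraries. Within the main site alone the groups overlapped, with mean positions of 80.5 to 88.1 nt in WT and 77.6 to 82.0 nt in R749H libraries.

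The second measure was the log2 odds of each site against the rest of its gene. It called 9 of 8828 sites (0.102%), and 1193 had an unadjusted p under 0.05. Of the members, CCNA2 alone has sites to test with ends joined up to 24 nt. The main site differed by 0.76 ± 0.67 (SE, adjusted p = 0.633) and the distal site by -0.41 ± 0.46 (adjusted p = 0.714). Taken apart as sites of their own, with ends joined up to 4 nt, the first CCNB1 group differed by 0.47 ± 0.32 (SE, limma adjusted p = 0.598) and the second by -0.39 ± 0.33 (adjusted p = 0.674). The upstream CCND3 group differed by -0.15 ± 0.45 (adjusted p = 0.91) and the downstream one by 0.43 ± 0.50 (adjusted p = 0.765).

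**Figure D2:**
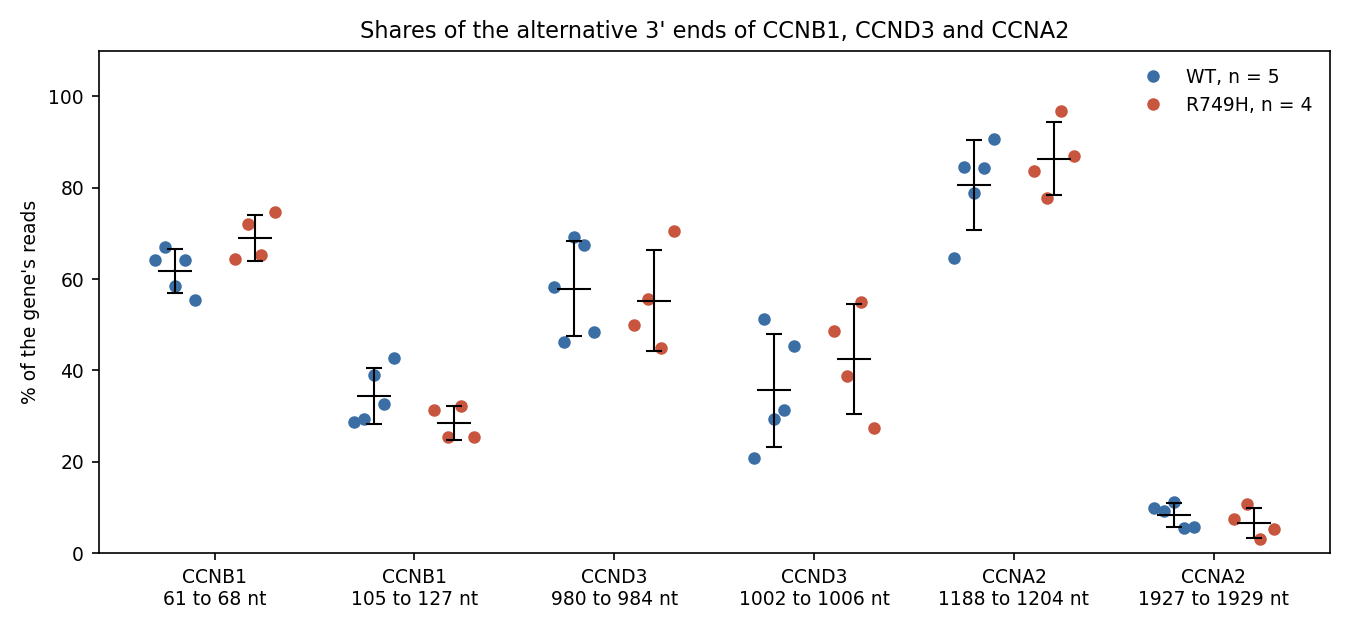
Percent of the gene’s reads (y axis) in neighbouring groups of 3’ ends of CCNB1, CCND3 and CCNA2, with 1 point per library and bars for the mean ± SD of 5 WT and 4 R749H libraries. The WT and R749H points overlap in all 6 groups of ends.

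The third measure was the read-weighted mean position within the main site, in nt. It called 2 of 7102 genes (0.0282%), and 446 had an unadjusted p under 0.05. Of these 446, 296 had a lower mean position in R749H and 150 a higher one. The median difference over all genes tested was -0.015 nt. The spread between libraries differed from gene to gene. In CCND1 the mean position was 3190.92 nt ± 0.0212 (SD, n = 5) in WT and 3190.94 nt ± 0.0409 (SD, n = 4) in R749H libraries. CCNE1 stood at 531.8 nt ± 0.151 and 531.9 nt ± 0.172, a difference of 0.05 nt ± 0.11 (SE, adjusted p = 0.964). CCND3, with its pair of groups of ends, stood at 992.1 nt ± 2.33 and 993.3 nt ± 2.47 (difference 1.21 nt ± 1.5, adjusted p = 0.917). CCND2, with the many positions of its site, stood at 204.6 nt ± 0.838 and 204.1 nt ± 0.523 (difference -0.56 nt ± 0.45, adjusted p = 0.876). The widest difference among the members was in CCNB1, at 83.4 nt ± 3.28 and 79.9 nt ± 2.26 (difference -3.44 nt ± 1.82, adjusted p = 0.832), whose main site spans both of its groups of ends. Its R749H libraries lay at 82.0, 78.4, 81.8 and 77.6 nt, and its WT libraries at 80.5, 80.8, 85.4, 82.1 and 88.1 nt, so that the groups overlapped. With major ends only, those with over 5% of the reads of the gene’s top end, the CCNB1 groups of ends were separate sites. The CCNB1 difference within its main site was then -0.08 nt (limma adjusted p = 0.927).

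The level of each gene was the sum of its 3’ end reads, in RPM (reads divided by the library total in M) after TMM scaling, a scaling that sets the bulk of genes equal between libraries. Of 9494 genes tested, 2265 (23.9%) differed between R749H and WT at an adjusted p of 0.05, with 1038 (10.9%) higher and 1227 (12.9%) lower in R749H. Of the 7 cyclins that could be tested, 1 was called, CCND1, which was higher in R749H. In none of the 7 did the R749H and WT libraries fall apart without overlap, which 19.9% of the genes tested did. Here, fewer cells in a phase of the cycle and less mRNA per cell cannot be told apart.

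CCND1 had 122.8, 54.1, 81.5, 66.9 and 42.3 RPM in WT replicates 1 to 5 and 103.5, 146.6, 93.7 and 126.5 RPM in R749H replicates 1 to 4. All R749H libraries were above 4 of the 5 WT libraries, and WT replicate 1 lay inside their range. The means were 73.5 ± 31.2 (SD, n = 5) and 117.6 ± 23.7 (SD, n = 4), a 1.68-fold difference with a log2 change of 0.75 ± 0.26 (SE, limma adjusted p = 0.0421). The call is near the threshold. It was lost when any 1 of WT replicates 2, 3, 4 and 5 or R749H replicates 2 and 4 was left out, with adjusted p of 0.0509 to 0.125, and with the filter on low reads removed (adjusted p = 0.0532). It was also lost with the replicate block (log2 0.57, adjusted p = 0.0984) and with the authors’ scaling alone (log2 0.41, adjusted p = 0.252), so that 9 of 17 alternatives did not keep it.

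CCND2 had 17.3, 14.2, 15.3, 17.2 and 28.0 RPM in WT and 12.4, 14.0, 21.3 and 23.7 RPM in R749H libraries. Its log2 change was -0.05 ± 0.26 (SE, limma adjusted p = 0.902), and its sign turned when WT replicate 5, R749H replicate 1 or R749H replicate 2 was left out. CCND3 had 7.68, 8.56, 11.1, 7.83 and 11.2 RPM in WT and 13.6, 9.86, 10.7 and 21.9 RPM in R749H libraries, the last standing above the rest. Its log2 change of 0.54 ± 0.27 did not pass (adjusted p = 0.156).

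CCNE1 had 29.1, 40.1, 34.3, 42.3 and 44.4 RPM in WT and 64.7, 40.3, 57.8 and 32.3 RPM in R749H libraries. A pair of R749H libraries was above all WT libraries and the other pair within their range (log2 change 0.32 ± 0.22, limma adjusted p = 0.315). CCNE2 had 3 or 4 reads in each WT library and 7, 1, 0 and 3 reads in the R749H libraries, too few to pass the filter on low reads.

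CCNA2 had 16.3, 26.9, 21.7, 27.9 and 37.1 RPM in WT and 29.9, 38.1, 34.3 and 39.2 RPM in R749H libraries. All R749H libraries were above 4 of the 5 WT libraries, and WT replicate 5 lay among them. The log2 change was 0.49 ± 0.23 (SE, limma adjusted p = 0.128). Without WT replicate 5 it was 0.63 and passed the threshold (adjusted p = 0.0446).

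CCNB1 had 75.8, 62.0, 66.4, 69.2 and 70.5 RPM in WT and 57.7, 52.9, 73.5 and 61.8 RPM in R749H libraries, with a log2 change of -0.17 ± 0.17 (SE, limma adjusted p = 0.491). CCNB2 had 21.8, 15.7, 22.3, 14.9 and 20.5 RPM in WT and 11.8, 11.8, 16.5 and 18.0 RPM in R749H libraries, with a log2 change of -0.39 ± 0.23 (adjusted p = 0.218). Both B-type genes overlapped between the groups.

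**Figure D3:**
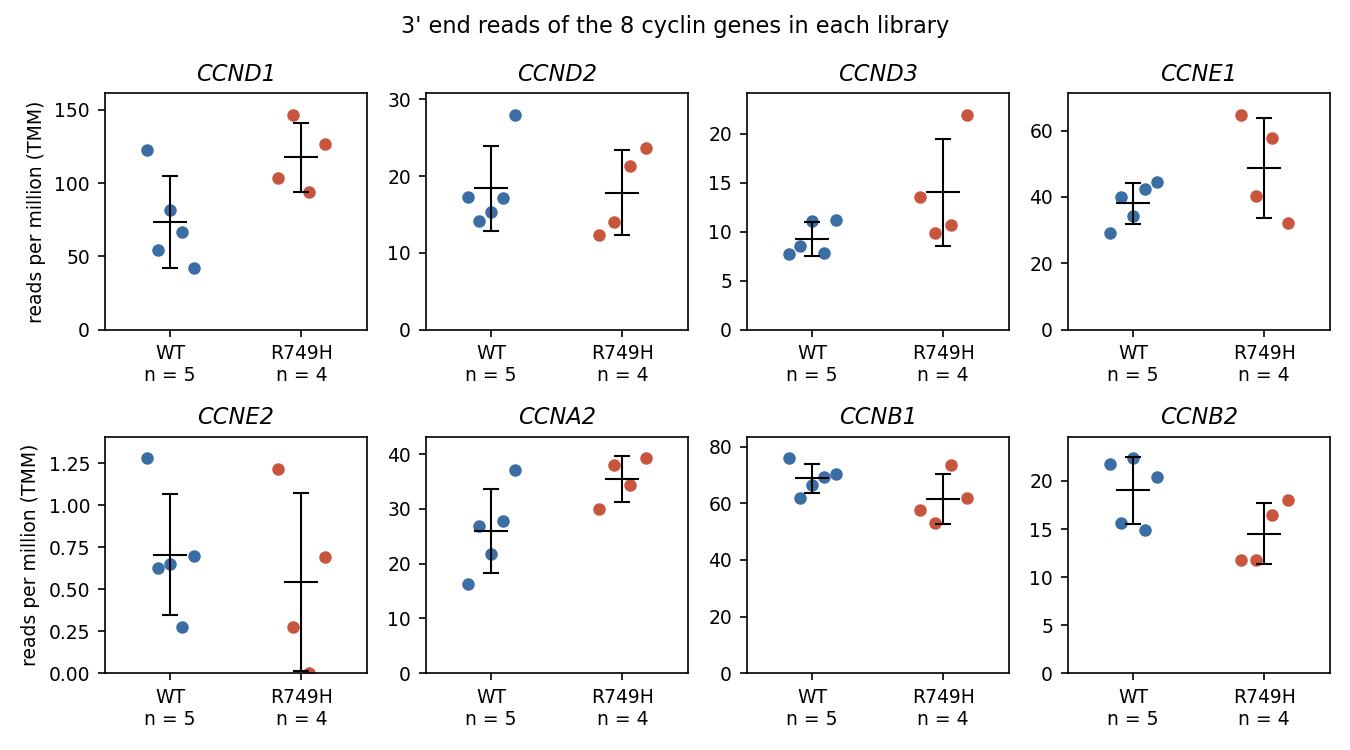
RPM after TMM scaling (y axis, from 0, each panel with its own scale) of the 8 cyclin genes, with 1 point per library and bars for the mean ± SD of 5 WT and 4 R749H libraries. The WT and R749H points overlap in every panel, and CCND1, with means of 73.5 and 117.6, is the only gene called different.

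In order of mean level in WT libraries the genes were CCND1 (73.5 RPM), CCNB1 (68.8), CCNE1 (38.0), CCNA2 (26.0), CCNB2 (19.0), CCND2 (18.4), CCND3 (9.27) and CCNE2 (0.706). Neighbours in that order overlapped between libraries except CCNB1 and CCNE1, CCND2 and CCND3, and CCND3 and CCNE2. In R749H libraries the means were 117.6 for CCND1, 61.5 for CCNB1, 48.8 for CCNE1, 35.4 for CCNA2, 17.8 for CCND2, 14.5 for CCNB2, 14.0 for CCND3 and 0.546 for CCNE2. There CCND1 lay above CCNB1 in every library. The CCND2 level leaves out any form that ends beyond 5 kb from the stop codon.

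Genes whose level followed that of a member most closely over the 9 libraries were found among 5590 genes with a mean of at least 50 reads, by Pearson’s r of log2 RPM. They were SLC25A3 for CCND1 (r = 0.968), PACS1 for CCND2 (0.927), WWTR1 for CCND3 (0.968), LAMA5 for CCNE1 (0.947), MCM4 for CCNA2 (0.991), ZBTB33 for CCNB1 (0.952) and PHKA1 for CCNB2 (0.909). The points are the same 9 libraries in each case and the best of all these genes was taken, so these values are a description. Between members, r was highest for CCNB1 and CCNB2 (0.74) and lowest for CCNE1 and CCNB2 (-0.605).

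Partners and regulators of the cyclins were described from 8 lists. Of their 80 different genes tested, 17 rose and 2 fell in R749H, where 10.9% and 12.9% of all genes tested did. The median log2 change over these genes was 0.12, against -0.07 over all genes tested. The lists were chosen with earlier results of these data known, so their comparison with all genes is a description. With the authors’ scaling alone, without TMM factors, the median of all genes moved to -0.41, and 9 of the 80 rose and 12 fell. The median of the lists stayed 0.19 above that of all genes, as a change of scaling shifts all genes about alike. The split over all genes moved in the same way, to 431 higher and 2627 lower. The members CCNB1 and CCNB2 then passed as lower (log2 -0.51 and -0.74, limma adjusted p = 0.0427 and 0.0291), and CCND1, at 0.41, no longer passed (adjusted p = 0.252). Directions below are relative to TMM scaling.

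The genes that rose most among these lists encode CDK inhibitors. CDKN1A, which encodes p21, had 64.6, 94.0, 74.4, 96.7 and 151.8 RPM in WT and 284.0, 418.8, 427.0 and 572.6 RPM in R749H libraries, with no overlap, a 4.48-fold difference (log2 2.16 ± 0.24, limma adjusted p = 2.1e-05). CDKN2B, which encodes p15, an inhibitor of CDK4 and CDK6, rose from a mean of 11.5 to 32.4 RPM (log2 1.48 ± 0.24, adjusted p = 0.000546). These were 2 of 6 inhibitors tested, and the other 4, CDKN1B, CDKN1C, CDKN2A and CDKN2C, had log2 changes of -0.23 to 0.41 and did not pass.

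Among the catalytic partners 1 of 3 tested rose. CDK1, the partner of cyclins A2 and B, went from 100.5 to 146.5 RPM (log2 0.54 ± 0.17, limma adjusted p = 0.027), a call lost in 6 of 17 alternatives, among them the omission of WT replicate 2 or 4 or of R749H replicate 2, 3 or 4, and the authors’ scaling alone. CDK2 and CDK4 had log2 changes of 0.24 and 0.14 (adjusted p = 0.366 and 0.713), and CDK6 was too low to test. Of the pocket proteins and E2Fs, which hold back and drive transcription of S phase genes, 1 of 9 rose. E2F1, an activator, went from 51.6 to 113.7 RPM (log2 1.25 ± 0.26, adjusted p = 0.00325).

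Of the phosphatases and kinases that act on CDKs, 1 of 7 rose, CDC25B, which removes inhibitory phosphates from CDK1 (log2 0.48 ± 0.17, limma adjusted p = 0.0482, lost in 12 of 17 alternatives, including every omission of 1 library except that of WT replicate 3). Genes of cyclin turnover rose in 2 of 11. SKP1, an adaptor of the SCF ubiquitin ligases, went from 279.6 to 500.9 RPM (log2 0.88 ± 0.19, adjusted p = 0.00436), and UBE2C, the ubiquitin-conjugating enzyme of the anaphase-promoting complex, from 45.6 to 83.7 RPM (log2 0.85 ± 0.20, adjusted p = 0.00677). In the list of other cyclins, which also holds CCNDBP1, a cyclin D binding protein, 1 of 13 rose. This was CCNK, whose product works with CDK12 and CDK13 in transcription (log2 0.55 ± 0.19, adjusted p = 0.0467, lost in 10 of 17 alternatives, among them the omission of any 1 of WT replicates 2 to 5 or R749H replicates 2 to 4).

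Genes of the G1/S transition rose in 4 of 13 and fell in none. PCNA, the clamp of replicative DNA polymerases, had 6.99 to 35.2 RPM in WT and 20.0 to 58.8 RPM in R749H libraries, which overlap (log2 1.41 ± 0.40, limma adjusted p = 0.0182). TK1, thymidine kinase, rose from 136.8 to 265.3 RPM (log2 0.97 ± 0.20, adjusted p = 0.00247), and FEN1, a flap endonuclease, from 10.7 to 20.0 RPM (log2 0.91 ± 0.24, adjusted p = 0.0128). PCNA and FEN1, like UBE2C above, did not pass with the authors’ scaling alone (adjusted p = 0.0645, 0.0832 and 0.0646), and PCNA did not pass with DESeq2 (adjusted p = 0.0687).

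Genes of G2 and mitosis went both ways, with 5 of 19 higher and 2 lower. Those with the largest rise were NUSAP1, a spindle protein (162.7 to 314.6 RPM, log2 1.09 ± 0.28, limma adjusted p = 0.0108, with WT replicate 5, at 295.9 RPM, above 2 of the R749H libraries), PTTG1, which encodes securin (269.7 to 560.1 RPM, log2 1.05 ± 0.18, adjusted p = 0.000834), and MYBL2, a transcription factor (226.6 to 429.8 RPM, log2 1.003 ± 0.24, adjusted p = 0.00646). The 2 that fell encode mitotic kinases. PLK1 had 177.7 to 212.7 RPM in WT and 80.4 to 129.4 RPM in R749H libraries (log2 -0.89 ± 0.17, adjusted p = 0.00153). AURKB had 247.9 to 471.3 and 179.5 to 269.7 RPM, which overlap (log2 -0.65 ± 0.19, adjusted p = 0.0205), and its call was lost without R749H replicate 1 or 2 (adjusted p = 0.0555 and 0.0664).

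**Figure D4:**
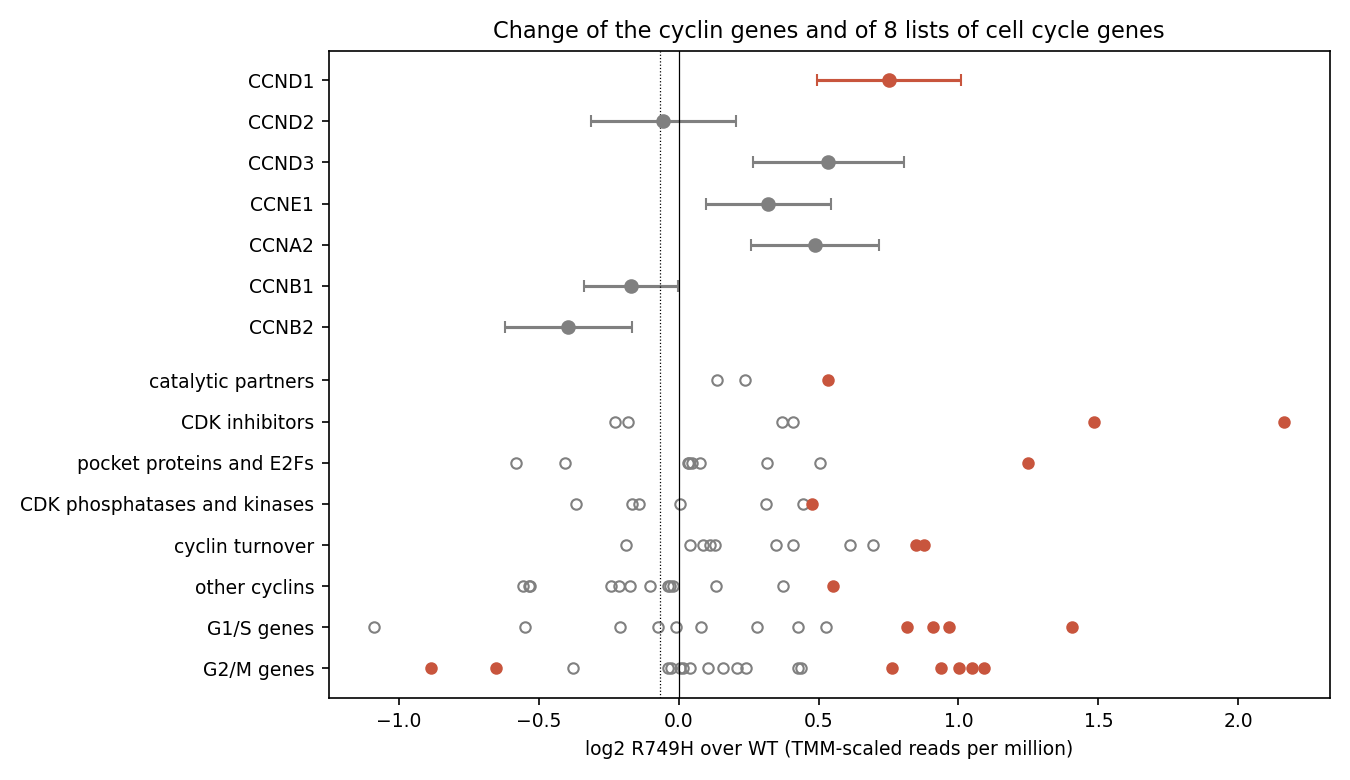
Log2 change, R749H over WT, in TMM-scaled RPM (x axis) for the 7 cyclin genes tested, with bars for 1 SE, and for the genes of 8 lists, 1 point per gene. Filled red points passed an adjusted p of 0.05, grey points did not, and the dotted line is the median of all 9494 genes tested (-0.07). CDKN1A lies farthest to the right and PLK1 is the lowest of the genes called.

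The libraries held 2479851 to 10135014 reads in WT and 3863468 to 6475987 reads in R749H within 5 kb of a stop codon. Of the line’s markers reported here, VIM, KRT8 and KRT18 were found in all 9 libraries, PAX2 in 8, EYA1 and LHX1 with 47 and 9 reads in all, NEFM with 2 reads and NEFL with none. Some of these markers did not overlap between the groups. VIM had 74.8 to 142 RPM in WT and 55.3 to 70.0 RPM in R749H libraries, PAX2 had 1.28 to 4.08 and 0 to 0.869 RPM, and EYA1 had 0.64 to 1.79 and 0 to 0.274 RPM, each without overlap, whereas KRT8, KRT18 and LHX1 overlapped. Of all genes tested for level, 19.9% had no overlap. PAX2, with 85 reads in all, and EYA1 rest on few reads. Their part in the results was not tested. Markers of blood, liver, endothelium and fibroblasts (PTPRC, CD3E, ALB, PECAM1, COL1A1 and COL1A2), and CDH1, found in many epithelial lines, stayed at or under 1.28 RPM in every library. In R749H libraries the line’s markers PAX2, EYA1 and LHX1 also stayed under that level, at no more than 0.869, 0.274 and 0.348 RPM. POLR2A, the gene of Rpb1, had 60.5 to 125 RPM in WT and 253 to 520 RPM in R749H libraries, and whether its reads come from the endogenous gene or the transgene was not tested, so it does not check the labels. R749H replicate 3 had 41033 different ends against 73112 to 112834 in the others. Without it the CCND1 call held (adjusted p = 0.0302), and 14 of 82 list genes rose and 2 fell.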

How the data were processed

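Poly(A) RNA of 9 libraries, 5 WT and 4 R749H, had been prepared by 3’ READS. The authors removed random and leading T bases, mapped the reads with bowtie (the labels name Bowtie2 2.3.2) to hg19, kept those with untemplated As and gave each 3’ end to an upstream CCDS stop codon within 5 kb. The deposited signal values are read numbers, put by the authors on a common total of 7 M poly(A) reads. Each was divided by the worth of 1 read. All values then came out whole within 0.1 reads, and these recovered reads were used. Ends in coding sequence, the pooled tables and 4 eNETseq libraries were not used here.

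Gene levels were fitted with limma 3.58.1 (log2 RPM, TMM factors of 0.812 to 1.26 from edgeR 4.0.16, filterByExpr, prior of 0.5 reads). End measures were fitted with limma on log2 odds with 0.5 reads added in proportion to depth, or on positions, for genes with a mean of at least 20 reads. All p-values were adjusted over all features by Benjamini-Hochberg, with a threshold of 0.05. Named were all members, up to 3 genes per direction and list with the largest change among those called, and the 1 gene most like each member. The members and lists were chosen with earlier results of these data known. Alternatives were edgeR and DESeq2 1.42.0 on the recovered reads, which called 2358 and 2653 genes, and other scalings, filters, priors and site definitions, a replicate block and each library left out, with the features of the end measures kept. Scripts were tested on simulated data. Replicates are biological by the study’s account. One marker of the line is not reported here.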

Additional observations from a re-analysis of the deposited data

Results flagged for a closer look

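In groups of 4 or 5 libraries, a library was singled out where its gap to the nearest other one was a large part of the group’s range, by Dixon’s ratio at the 95% level. Of 62 groups of values examined for the members, 9 had such a library. Chance gives about 1 in 20 for independent, normally distributed values, which these are not, so the numbers cannot be compared. Shares of the same gene depend on each other. Where all other libraries tie, any value is flagged, as for CCNB2 and the CCND2 ends from 650 to 666 nt in R749H. CCND2 stood at 27.98 RPM in WT replicate 5, above 14.2 to 17.3 RPM in the other WT libraries. The main CCND2 site held 91.49% of reads in WT replicate 3 (86 of 94), below 94.1% to 94.7% in the others. Its ends from 650 to 666 nt held 3.704% in WT replicate 1 and 6.796% in R749H replicate 4 (7 of 103 reads), and the other 3 R749H libraries had none. The main CCNB1 site held 92.83% in WT replicate 1 (220 of 237), the library with the fewest reads, against 97.0% to 98.3%. In the same library 19.61% of CCNA2 reads ended at 261 to 276 nt. In R749H replicate 1 the mean position in the main CCND1 site was 3191 nt, less than 0.1 nt from the others. In R749H replicate 2 the main CCNB2 site held 97.67% and the distal ends from 1129 to 1147 nt held 2.326%, which is 1 read of 43, and the other 3 R749H libraries had no distal read.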

How the results depend on the processing

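The number of genes with changed level was 1520 to 2664 with 1 library left out and 2093 with a replicate block, against 2265. Called 3’ UTR shifts, 3 in the fit reported, were 2 to 4 with 1 library left out, 1 by mean distance and 0 with the replicate block. Called sites, 9 as reported, were 0 to 12 with 1 library left out and 0 with the block. Called positions within the main site, 2 as reported, were 1 to 3 with 1 library left out, 1 with ends joined at 4 nt, 1 with major ends only, 1 with a mean of at least 50 reads and 0 with the block. The block used replicates 1 to 4 and left out WT replicate 5. Same-numbered libraries deviated together with r of -0.0705, 0.0507, 0.016 and -0.0494, so the numbers do not pair them. With the block, CCND1 no longer passed (log2 0.57, limma adjusted p = 0.0984), CCNA2 did (0.63, 0.0468), and CCND2 had 0.10. Signs turned, in values that never passed, for CCNE1 level under the authors’ scaling alone (-0.022), CCND2 level with single libraries left out (0.07 to 0.12), the CCND1 shift by mean distance (-0.0074) and at the midpoint (-0.19), the CCNB2 shift at the midpoint (0.29), the CCND3 shift with single libraries left out (-0.05 to 0.46), and the positions of CCND1 with major ends only (-0.0042) or with single libraries left out (-0.0049 to 0.023), and of CCNE1 with single libraries left out (-0.038 to 0.083). The cause was not tested. Sites from major ends only, chosen after seeing the data, gave 7 calls. Depth limits CCNE2 and the minor ends, which rest on few reads.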
